A study of Zea mays with 32 samples.

Results

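Palomero and Mushito are native landraces of maize (Zea mays), and the 4 libraries of each were compared across all genes measured. The members were the 4 Palomero and the 4 Mushito libraries, 8 of the 32 libraries in the series, and the 26010 of 39756 genes whose mean over these 8 libraries was at least 10 normalized counts. A normalized count is the number of reads on a gene divided by 1 factor per library, so that libraries of unequal depth can be compared. The 4 groups were the Palomero genotype in the fifth leaf, the Palomero genotype in the ninth leaf, the Mushito genotype in the fifth leaf and the Mushito genotype in the ninth leaf, with 2 libraries each. All 4 groups, and those of the other 6 landraces (Tabloncillo, Reventador, Zapalote, Gordo, Nal-tel and Jala), were leaf primordia at plastochron stage 4 from plants grown at 35 °C under a treatment labelled heat. The comparison is between landraces within that treatment, since libraries at other temperatures were not analysed here. The study's title concerns leaf vein density and photosynthesis in maize.

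A landrace is a traditional variety that farmers keep by saving seed, and its plants are not genetically uniform. A library therefore stands for the plants sampled and not for a fixed genotype. Maize races called Palomero and Mushito are known from the highlands of central Mexico, and Palomero is a popcorn, but the labels give the names only. A leaf primordium is a young leaf forming on the flank of the shoot tip, and the plastochron stage counts the younger leaves initiated after it. In grasses the spacing of the veins is laid down while the leaf is a primordium. Maize lines are known to differ in the sequence and activity of regulatory regions and also in which genes they carry. A low count in 1 landrace can come from a silent gene, from a missing gene or from a copy whose reads did not align to the reference used. Nor can fewer cells of a type be told apart from less RNA per cell in such bulk tissue.

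The files do not pair the gene IDs with names, and 0 of the 39756 IDs matched the 49888 genes of the RefSeq table of assembly Zm-B73-REFERENCE-NAM-5.0. The genes are therefore given by ID, with no name, position or role. Lists of pathway genes and markers of leaf primordia were not analysed here, and the labelled tissue was not checked against its markers.

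The reads recovered from the normalized counts numbered 54.8 M to 75.2 M in the 8 libraries, with a median of 60.2 M, against 54.8 M to 121 M over all 32. Between 28975 and 30585 genes had at least 1 read. The largest number was in the fifth leaf replicate 1 of Palomero. That library also stood apart in the share of even numbers among values of 1 to 20 reads, which was 76.7% there and 83.6% to 86.6% in the other 7. The 10 most abundant genes held 2.18% to 2.86% of the reads.

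Palomero and Mushito differed in fewer genes than any other pair of the 8 landraces. Over both leaves, 493 of the 26010 genes (1.9%) passed the threshold, which was an adjusted p under 0.05 in limma's moderated test. Palomero was higher in 232 of them (0.892% of genes tested) and Mushito in 261 (1%). At an unadjusted p under 0.05 there were 3310 genes (12.7%). The count was 292 with only the 8 libraries in the fit, of which 194 were among the 493. It was 951 in DESeq2, of which 438 were among the 493. It was 273 without the fifth leaf replicate 2 of Palomero, 300 and 302 without the ninth leaf replicate 2 of Mushito and replicate 1 of Palomero, and 755 without the fifth leaf replicate 2 of Mushito. Among the 28 pairs of landraces, fitted in the same model with the same filter on their own 8 libraries, the next smallest counts were 1437 for Tabloncillo and Mushito, 1473 for Tabloncillo and Zapalote and 1510 for Mushito and Zapalote. The most genes, 5530, differed between Reventador and Palomero. Each landrace differed in more genes from each of the other 6: Palomero in 2191 to 5530 and Mushito in 1437 to 4076. These pairs share libraries and are not independent of each other, so their order is a description without a test of its own.

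**Figure D1:**
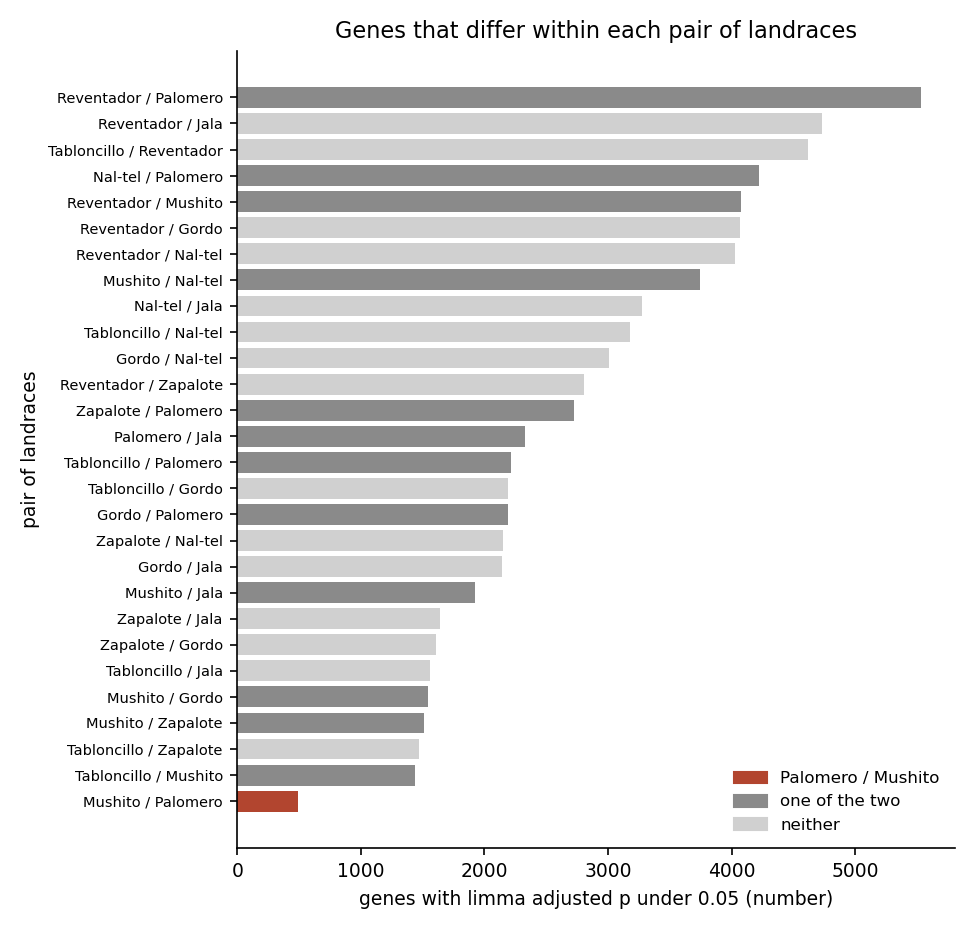
Number of genes past the limma threshold (horizontal axis) for each of the 28 pairs of landraces over both leaves, with the Palomero and Mushito pair in red, pairs holding one of them in dark grey and the rest in light grey. The red bar, at 493 genes, is the shortest, and the next, Tabloncillo and Mushito, stands at 1437.

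The pair also had the fewest calls in each leaf. In the fifth leaf 138 genes (0.531%) passed, and the next smallest count was 464, for Tabloncillo and Jala. The ninth leaf had 124 (0.477%), and the next was 239, for Zapalote and Gordo. It was last of the 28 as well with edgeR on the recovered reads, 367 against 1259 for the next pair, and without each of its 8 libraries in turn, with 273 to 755 calls against 856 to 1372 for the next. The typical size of a difference was smallest too: the median absolute log2 difference over the genes tested was 0.18, against 0.20 for Mushito and Zapalote, the next pair. The choice to rank the pairs within each leaf and without each library was made after seeing the data.

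Most differences that passed were large. Over the 493 genes the median absolute log2 difference was 2.44, with 2.75 where Palomero was higher and 2.22 where Mushito was higher, and over all genes tested it was 0.18. At least a 2-fold difference was found in 371 of the 493 (75.3%), against 2700 of all tested (10.4%). It reached 4-fold in 281 and 8-fold in 199. These values are on the scale of log2(normalized count + 1), which understates the change of genes with low counts.

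What could pass depended on how abundant a gene was. Of the 6093 genes with a mean of 10 to 100 normalized counts, 191 passed (3.13%), none with a difference under 2-fold, and the median standard error there was 0.68 on the log2 scale. Of the 7682 genes with a mean of 100 to 1000, 183 passed (2.38%), 27 of them under 2-fold, with a median standard error of 0.27. Of the 10983 genes with a mean of 1000 to 10000, 111 passed (1.01%), and 88 of these differed by less than 2-fold. Their median standard error was 0.13. Among the 1252 genes above that, 8 passed (0.639%), 7 of them under 2-fold. Differences under 2-fold thus made up most of the calls from a mean of 1000 upwards, a minority of those from 100 to 1000 and none of those below.

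**Figure D2:**
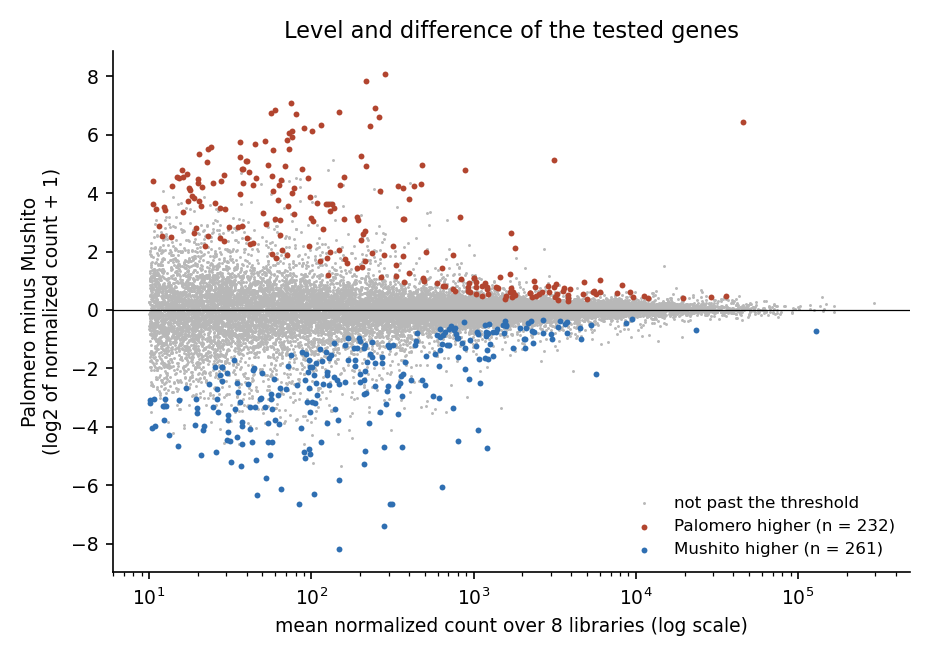
Mean normalized count over the 8 libraries (horizontal, log scale) against the log2 difference of Palomero minus Mushito over both leaves (vertical) for the 26010 genes tested. Red points are the 232 genes that passed with Palomero higher, blue the 261 with Mushito higher. The coloured points lie far from 0 at low counts, and most lie closer to it at high counts. Of the 111 with a mean of 1000 to 10000, 88 differed by less than 2-fold. The red point at the upper right is Zm00001eb103500.

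In 1571 of the genes tested (6.04%) the 4 libraries of one landrace all lay above the 4 of the other, 783 with Palomero above (3.01%) and 788 with Mushito above (3.03%). Of the 493 genes that passed, 389 were separated in this way, 197 of the 232 with Palomero higher and 192 of the 261 with Mushito higher. In the rest at least 1 library overlapped the other landrace.

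The first genes described are the largest differences among separated genes that averaged 100 or more and had no library at the floor; genes at or near the floor reached larger values and follow further on. Within that limit Zm00001eb103500 had the largest difference towards Palomero, and it also had the highest mean of the genes that passed with Palomero at least 2-fold higher. Its normalized counts in Palomero were 76552 and 99556 in the fifth leaf and 88351 and 94665 in the ninth. The 4 values in Mushito were 1940, 262, 6804 and 315, in the same order. The groups did not overlap, the Palomero libraries lay close together, and replicate 1 of Mushito was the higher in each leaf. The log2 difference was 6.45 (SE 0.60, limma adjusted p = 4.67e-06). The gene stood at one of 2 levels in the other landraces too: at 72066 or above in every library of Tabloncillo, Reventador, Nal-tel and Jala, and at 150 to 426 in those of Zapalote and Gordo. Palomero thus belonged with the first 4 in this gene, and Mushito with the low ones, though with libraries at 1940 and 6804 that the low landraces did not have.

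Zm00001eb319670 came second towards Palomero within the same limit. It had 7004 and 916 normalized counts in the fifth leaf and 10272 and 6054 in the ninth leaf of Palomero. The Mushito values were 739, 90.7, 60.3 and 62.5 in the same order. The groups were separated only by the gap between 739 in the fifth leaf replicate 1 of Mushito and 916 in the fifth leaf replicate 2 of Palomero. The log2 difference was 5.13 (SE 0.98, limma adjusted p = 0.00607). It was 3.28 in the fifth leaf, which did not pass on its own (adjusted p = 0.385), and 6.98 in the ninth (adjusted p = 0.0235). The other 24 libraries ran from 65.7 to 74588, so the ninth leaf of Mushito lay just below all of them. Some of their replicates were far apart too. The fifth leaf of Tabloncillo had 1608 and 20442, and the ninth leaf of Gordo 7398 and 200. In Reventador, Nal-tel and Jala the group means ran from 37648 to 65686, above every Palomero library.

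The 2 largest differences towards Mushito within that limit were of different kinds when set beside the other landraces. Zm00001eb392350 had 1846 and 1049 normalized counts in the fifth leaf and 677 and 1465 in the ninth leaf of Mushito, against 25.4, 14.8, 21.3 and 9.82 in the 4 Palomero libraries. The log2 difference was -6.05 (SE 0.61, limma adjusted p = 8.24e-06), and the other 24 libraries lay between 6.57 and 194, all below Mushito. Zm00001eb273320 had 2447 and 3014 in the fifth leaf and 1501 and 2263 in the ninth leaf of Mushito, against 90.4, 63.6, 40.1 and 215 in Palomero (log2 difference -4.72, SE 0.43, limma adjusted p = 4.53e-06). Its other 24 libraries ran from 199 to 2886. In the first gene it was Mushito that lay outside the range of all others, and in the second 3 of the 4 Palomero libraries lay below it.

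Among the abundant genes with at least a 2-fold difference, Zm00001eb337180 was higher in Palomero. Its normalized counts were 10804 and 6919 in the fifth leaf and 7047 and 7341 in the ninth leaf of Palomero, and 2841, 2911, 5643 and 4930 in the same order in Mushito. Every Palomero library lay above the other 28 libraries of the series, since the other 6 landraces reached from 2346 to 6413. The log2 difference was 1.02 over both leaves (SE 0.16, limma adjusted p = 0.000949), made up of 1.59 in the fifth leaf (adjusted p = 0.00124) and 0.45 in the ninth (adjusted p = 0.608). The test of the difference between the leaves gave an adjusted p of 0.539, so a difference between leaves was not shown. Without the fifth leaf replicate 1 of Palomero the log2 difference over both leaves was 0.86. Without the ninth leaf replicate 2 of Mushito it was 0.97. Both are under 2-fold, where leaving out any other of the 8 libraries gave 1.00 to 1.18.

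Zm00001eb402840 and Zm00001eb238590 were the abundant genes higher in Mushito. The first had 7476 and 11354 normalized counts in the fifth leaf and 9396 and 8881 in the ninth leaf of Mushito, and 2107, 2452.2, 1392 and 2308 in the 4 Palomero libraries. The groups were far apart, with a log2 difference of -2.18 (SE 0.28, limma adjusted p = 0.000153) of nearly the same size in the fifth (-2.02) and the ninth leaf (-2.35). The second had 3435, 3383, 3034 and 2669 in Mushito and 956, 2163, 1546 and 1334 in Palomero, where the fifth leaf replicate 1 was the lowest. Its log2 difference was -1.12 (SE 0.24, limma adjusted p = 0.0151). Without that library it was -0.82 and missed the threshold. It also missed it without the ninth leaf replicate 1 of Mushito (-1.07) or the ninth leaf replicate 2 of Palomero (-1.06). With only the 8 libraries in the fit it missed the threshold too (limma adjusted p = 0.0670).

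**Figure D3:**
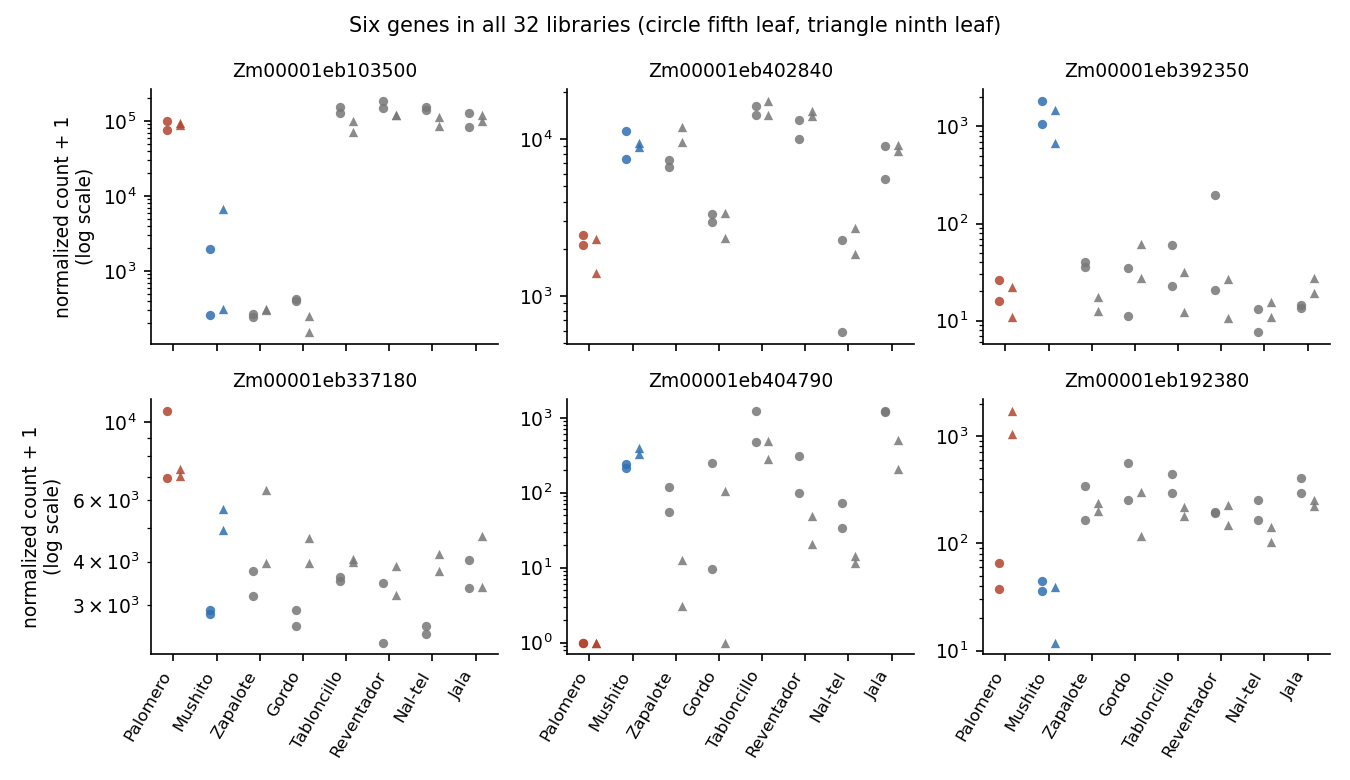
Normalized count + 1 (vertical, log scale) of 6 of the genes described, in all 32 libraries by landrace, with Palomero in red, Mushito in blue, the other 6 landraces in grey, circles for the fifth leaf and triangles for the ninth. Zm00001eb103500 is high in Palomero and 4 other landraces, Zm00001eb392350 in Mushito alone, and Zm00001eb192380 rises above the others only in the ninth leaf of Palomero.

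A small set of genes was read in one landrace and close to absent in the other. The floor was set at 3 reads: a library at or below it counts as not showing the gene. In 20 genes (0.0769% of those tested) all 4 Mushito libraries were at the floor and all 4 Palomero libraries had at least 10 normalized counts. In 9 genes (0.0346%) it was the reverse. This total of 29 was the smallest of the 28 pairs as well, the next being 49 for Tabloncillo and Zapalote and the largest 182 for Reventador and Jala. In the 20 genes the Palomero mean ran from 21.3 to 434 normalized counts, with a median of 47.3. In the 9 genes the Mushito mean ran from 23.7 to 297, with a median of 51.6. Of the 20, 19 passed the limma threshold, as did all 9 of the others, but these genes were chosen by the same libraries and their calls are no further evidence. No Mushito library had a read in 9 of the 20, and no Palomero library in 3 of the 9.

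Zm00001eb141590 had the highest mean of the 20. It had 401 and 53.0 normalized counts in the fifth leaf and 831 and 450 in the ninth leaf of Palomero, and at most 2 reads in any Mushito library. Taken against a floor of 3 reads in each library, Palomero was at least 135-fold higher. Zm00001eb095120 came next, with 183 and 97.6 in the fifth leaf and 324 and 306 in the ninth leaf of Palomero and at most 3 reads in Mushito, so at least 70.5-fold higher. Both passed in limma (adjusted p = 0.000581 and 0.00548). The second missed the threshold with a pseudocount of 0.1 (adjusted p = 0.0684). Over the 20 genes these lower bounds ran from 6.59-fold to 135-fold, with a median of 14.7-fold.

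In the opposite direction Zm00001eb404790 had no read in any Palomero library, and 244 and 212 normalized counts in the fifth leaf and 330 and 400 in the ninth leaf of Mushito. Mushito was at least 86.5-fold higher (limma adjusted p = 0.000108). Zm00001eb209700 had 161 and 182 in the fifth leaf and 127 and 195 in the ninth leaf of Mushito, and at most 2 reads in Palomero, which made Mushito at least 48.5-fold higher. Its limma adjusted p of 0.0257 was lost without any of 7 of the 8 libraries (0.0510 to 0.108; the exception was the fifth leaf replicate 2 of Mushito) and in edgeR (0.0590). Lower bounds over the 9 genes ran from 6.92-fold to 86.5-fold, with a median of 15.04-fold.

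The floor genes were also unevenly read in the other landraces. Of the 24 other libraries, a median of 5.5 were above the floor for the 20 genes read in Palomero and 16 for the 9 genes read in Mushito. Zm00001eb169700 and Zm00001eb219550 were at the floor in every library of the other 6 landraces, so only the Palomero libraries were above it. The first had no read in any library outside Palomero. The second had up to 3 reads in Mushito and up to 1.95 normalized counts in the other 6 landraces. None of the 9 genes read in Mushito was at the floor in all 6, and 4 of them were above it in every library of at least 3 of the other landraces, against 1 of the 20. Leaving out 1 library gave 20 to 29 genes read in Palomero and 10 to 18 read in Mushito, against 20 and 9. Fewer libraries then have to meet the rule, which by itself raises such counts or leaves them as they were.  The most on the Mushito side, 18, came without the fifth leaf replicate 1 of Palomero, and 14 came without replicate 1 of either leaf of Mushito.

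The fifth and ninth leaves share no library, so the difference found in one leaf could be looked up in the other. Of the 138 genes that passed in the fifth leaf, 78 (0.3% of those tested) were higher in Palomero and 60 (0.231%) in Mushito. The 124 genes of the ninth leaf were split into 61 (0.235%) and 63 (0.242%). Without 1 library of the leaf, the 138 became 36 or 73 (without replicate 2 or 1 of Palomero) and 571 or 100 (without replicate 2 or 1 of Mushito), and the 124 became 67 or 53 (without replicate 1 or 2 of Palomero) and 46 or 59 (without replicate 1 or 2 of Mushito). The balance of directions also turned on single libraries: the share with Palomero higher was 56.5% in the fifth leaf, and 37.0% or 66.7% without replicate 1 or 2 of Palomero, and it was 49.2% in the ninth leaf, and 28.3% without replicate 2 of Palomero. Of the 138, 121 (87.7%) had a difference of the same sign in the ninth leaf, and of the 124, 110 (88.7%) had one in the fifth. Over all genes tested the share with the same sign was 54.4%. Genes are not independent of each other, so these shares carry no test.

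The looked-up differences were smaller than those in the leaf that chose the genes. The median log2 difference in the direction of the call was 3.17 in the fifth leaf for its 138 genes and 1.38 for the same genes in the ninth. For the 124 genes of the ninth leaf it was 4.55 there and 2.32 in the fifth. The first value of each pair chose the genes and is a description. The second is a difference between libraries of the other leaf, which entered the choice through the filter and the residual spread. Each gene had the same standard error in both leaves, so passing in the fifth leaf is not independent of passing in the ninth. A set of 35 genes passed in both leaves, 25.4% of the 138 and 28.2% of the 124. Of all genes tested, 0.477% passed in the ninth leaf and 0.531% in the fifth. In the other leaf, 92 of the 138 and 85 of the 124 had the same sign with an unadjusted p under 0.05. Over all genes tested, such a p with either sign was found for 8.44% in the ninth leaf and 11.3% in the fifth. Over all 26010 genes the differences in the 2 leaves had a Pearson correlation of 0.48 across genes. It was 0.50 over the 19917 genes averaging 100 or more and 0.21 over the 12235 averaging 1000 or more; the levels of both leaves rest on the same factors per library and the same annotation. Of the 493 genes that passed over both leaves, 35 passed in each leaf alone, 82 in the fifth and not the ninth, 76 in the ninth and not the fifth, and 300 in neither alone.

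**Figure D4:**
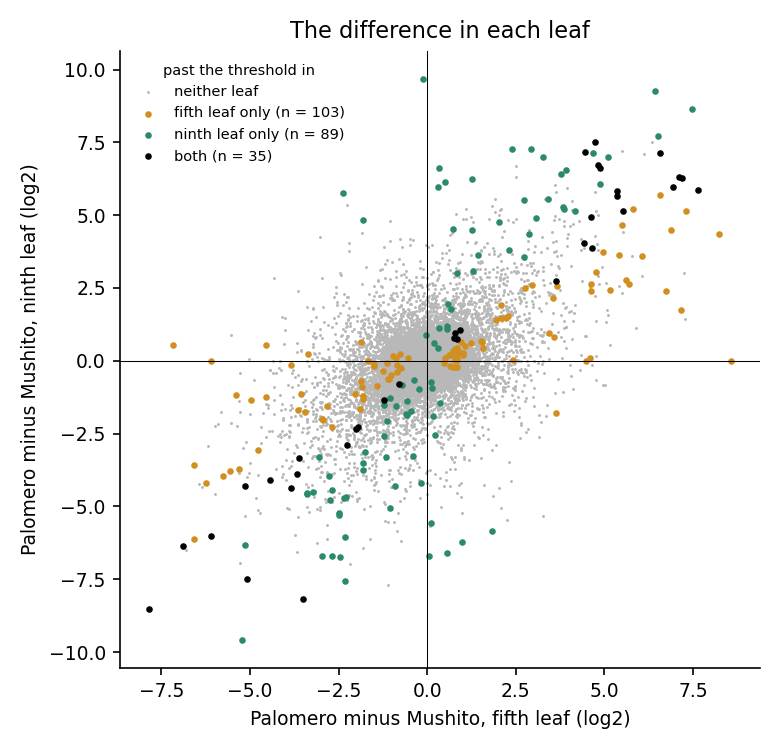
Log2 difference of Palomero minus Mushito in the fifth leaf (horizontal) against that in the ninth leaf (vertical) for the 26010 genes tested, with genes past the threshold in the fifth leaf only in orange, in the ninth only in green and in both in black. All 35 black points have the same sign on both axes, and orange and green points lie along the axes as well as the diagonal.

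In each leaf, the gene with the largest difference each way was taken among those not yet picked, with a mean of at least 100 in that leaf and no library at the floor. Zm00001eb310900 had 988 and 690 normalized counts in the fifth leaf of Palomero and 15.1 and 16.5 in that of Mushito (log2 difference 5.62, SE 1.03, limma adjusted p = 0.0110). At the ninth leaf it had 457 and 579 in Palomero and 133 and 42.4 in Mushito, a smaller difference in the same direction (2.76, adjusted p = 0.387). The call in the fifth leaf was lost with a pseudocount of 0.1 (limma adjusted p = 0.0848) and with only the 16 libraries of that leaf in the fit (0.0507). It was also lost without the fifth leaf replicate 1 of Palomero (log2 difference 5.36), replicate 2 of Palomero (5.88) or replicate 1 of Mushito (5.56). Zm00001eb310040 was lower in Palomero in both leaves. It had 180 and 82.7 in the fifth leaf of Palomero and 1214 and 2559 in that of Mushito (log2 difference -3.84, SE 0.65, limma adjusted p = 0.00620). Its values in the ninth leaf were 89.7 and 110 in Palomero and 2751 and 1550 in Mushito (-4.36, adjusted p = 0.00158). The call of this gene in the fifth leaf was lost with only the 16 libraries of that leaf in the fit (limma adjusted p = 0.0622). It was also lost without the fifth leaf replicate 2 of Palomero (log2 difference -3.29).

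Of the genes picked for the ninth leaf, Zm00001eb168820 had 44.9 and 24.5 normalized counts in Palomero and 968 and 568 in Mushito (log2 difference -4.44, SE 0.76, limma adjusted p = 0.00609). In the fifth leaf it had 76.1 and 48.8 in Palomero and 189 and 837 in Mushito (-2.69, adjusted p = 0.139). The groups were apart in both leaves, but the ninth leaf call was lost with only the 8 libraries in the fit (limma adjusted p = 0.0648). It was also lost without the ninth leaf replicate 1 of Mushito (log2 difference -4.06) or replicate 2 of Palomero (-4.02).

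At an unadjusted p under 0.05 in limma, 1610 genes (6.19% of those tested) had a change between the leaves that differed between Palomero and Mushito. It passed the adjusted threshold in 4 genes (0.0154%), with a value above 0 in 2 (0.00769%) and below 0 in 2 (0.00769%). The count was 9 and 19 without the fifth leaf replicate 1 and 2 of Mushito, 7 without the ninth leaf replicate 2 of Mushito, 2 without replicate 1 of Palomero in either leaf, and 46 in DESeq2. Zm00001eb192380 was the only one of the 4 with reads in all 8 libraries. In the fifth leaf it had 63.9 and 36.1 normalized counts in Palomero and 43.5 and 35.0 in Mushito, which overlapped (log2 difference 0.29, adjusted p = 0.877). In the ninth leaf it had 1050 and 1714 in Palomero against 10.9 and 38.0 in Mushito (5.96, SE 0.55, limma adjusted p = 5.03e-06). The leaf difference of Palomero minus that of Mushito was 5.67 (SE 0.77, limma adjusted p = 0.00503). The other 24 libraries lay between 101.2 and 563, so the ninth leaf of Palomero was above all of them while the fifth leaf of Palomero and all 4 Mushito libraries were below all of them. With only the 8 libraries in the fit this call was lost (adjusted p = 0.362), the value staying at 5.67.

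The other 3 genes had libraries with no read in one leaf, so their fitted values depend on the pseudocount and are not bounds. Zm00001eb279860 had 1066 and 134 normalized counts in the fifth leaf of Palomero and no read in the ninth leaf of Palomero or in any Mushito library. At most 4.12 was found in any of the other 24 libraries. Its value was -8.57 (SE 1.40, limma adjusted p = 0.0331), and this call was lost in 13 of 21 alternatives, including edgeR (adjusted p = 1.00) and each of the fits without any one library except the fifth leaf replicate 2 of either landrace. Zm00001eb220210 and Zm00001eb354330 are named because there are so few, and were chosen after their values were seen. Zm00001eb220210 had 50.7 and 67.9 in the fifth leaf and no read in the ninth leaf of Palomero, and 29.3, 52.5, 83.2 and 109 in Mushito in the same order (-7.16, SE 0.98, limma adjusted p = 0.00503). Zm00001eb354330 had no read in the fifth leaf and 43.7 and 65.0 in the ninth leaf of Palomero, and 1.89, 8.24, 0 and 0 in Mushito in the same order (8.13, SE 1.30, limma adjusted p = 0.0308).

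Set beside the other 6 landraces, the genes that differed had levels nearer to Mushito more often than to Palomero. The mean log2 level of the 6 was nearer to Mushito in 337 of the 493 genes (68.4%) and nearer to Palomero in 156 (31.6%), while over all genes tested it was nearer to Mushito in 54.9%. The share was 71.1% where Palomero was higher and 65.9% where Mushito was higher. In 69.6% of the 493 the mean of the 6 lay between the 2 landraces, against 33.3% of all tested. This contrast follows in part from the choice of genes that differ, since a wider gap leaves more room between the 2. Taken 1 by 1, each of the 6 was nearer to Mushito in most of the 493, from 57.2% for Jala to 66.7% for Zapalote, where the shares over all genes tested were 50.7% and 57.8%. These shares describe the levels, and no test was run on them.

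Palomero also lay at the extreme of the 32 libraries in more of these genes than Mushito did. In 79 of the 493 genes (16.02%) the 4 Palomero libraries lay above or below all 28 others, against 136 of all tested (0.523%). Mushito lay apart from all 28 others in 19 (3.85%), against 47 of all tested (0.181%). Both shares among the 493 follow in part from the choice of genes that differ, and the part of the wider spread between Mushito replicates in the second was not tested.

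Mushito replicates of the fifth leaf differed more than those of the other 3 groups. The median absolute log2 difference between the 2 replicates was 0.40 in the fifth leaf of Mushito, 0.22 in its ninth leaf, and 0.23 and 0.20 in the fifth and ninth leaf of Palomero. At least a 2-fold difference between replicates was found in 5260 genes (20.2%) in the fifth leaf of Mushito, and in 11.5% to 12.6% of genes in the other 3 groups. The correlation of log2 values across genes was 0.93 between these 2 replicates and 0.96 to 0.97 in the other groups. Among the 8 libraries, neither was the other's closest: replicate 1 was closest to the ninth leaf replicate 2 of Mushito (0.94) and replicate 2 to the ninth leaf replicate 1 of Mushito (0.95). Each of the 8 was closest to a library of its own landrace. The part of this spread in the counts of differing genes was not tested. Leaving out 1 of these 2 libraries changes the group mean as well as the spread, so it cannot give that part. With 1 library left in a group, that library is assumed to vary like the other groups.

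**Figure D5:**
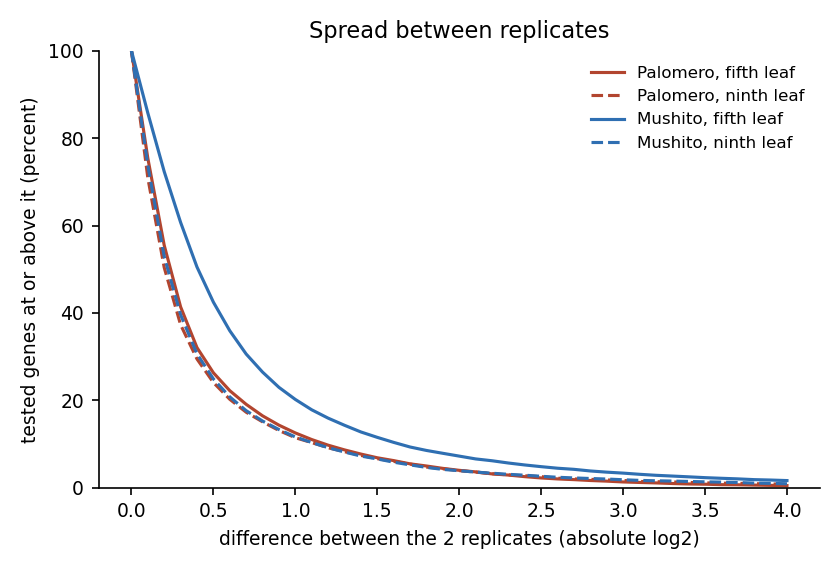
Share of the 26010 genes tested (vertical, percent) whose 2 replicates differ by at least the absolute log2 difference on the horizontal axis, for Palomero in red and Mushito in blue, with solid lines for the fifth and dashed lines for the ninth leaf. The solid blue line lies above the other 3, and at a difference of 1.0 it stands at 20.2% of genes.

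Some genes were on in 1 replicate only. With at least 100 normalized counts in one replicate and the floor in the other, there were 43 genes in replicate 1 and 32 in replicate 2 of the fifth leaf of Mushito, and 29 and 11 in its ninth leaf. In Palomero the counts were 3 and 6 in the fifth leaf and 11 and 24 in the ninth. Such genes were thus found in all 4 groups and most often in Mushito. Whether they come from plants of unlike genotype within the landrace was not tested.

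Some of the genes that differed had neighbouring IDs, in the order given by the digits of the ID, which stands for no measured distance. For 26 of the 493 genes (5.27%) the next tested ID had passed in the same direction and for 5 (1.01%) in the other direction, where 0.892% and 1% of all tested genes passed with Palomero and Mushito higher. There were 10 stretches of neighbouring IDs with Palomero higher, holding 22 genes, and 13 with Mushito higher, holding 27. The longest held 3 genes, 2 of them on the Palomero side and 1 on the Mushito side. Reads shared between neighbouring genes of near-identical sequence would move such genes together, which was not tested.

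In the stretch of Zm00001eb115310, Zm00001eb115320 and Zm00001eb115330 the Palomero means were 30.2 ± 17.8, 291 ± 73.3 and 931 ± 284 normalized counts (SD, n = 4). The Mushito means were 0.302 ± 0.603, 4.13 ± 6.96 and 35.3 ± 30.0, and none of the other 24 libraries exceeded 4.67, 8.24 and 10.9. All 3 genes therefore had their highest mean in Palomero of the 8 landraces. Their log2 differences from Mushito were 4.52, 6.77 and 4.97 (limma adjusted p at most 0.00415). For Zm00001eb115330 the Mushito mean of 35.3 also lay above all of the other 24 libraries. In the other Palomero stretch, Zm00001eb301840, Zm00001eb301850 and Zm00001eb301860, the difference was one of degree. Palomero means were 490 ± 74.4, 568 ± 78.4 and 437 ± 89.9 and Mushito means 253 ± 63.4, 162 ± 48.3 and 122 ± 44.8 (SD, n = 4). The log2 differences were 0.97, 1.84 and 1.90 (limma adjusted p at most 0.0212). The other 24 libraries spanned 317 to 828 in the first gene, 171 to 680 in the second and 109 to 889 in the last, so the Mushito mean was below all of them in the first and second and within their range in the last.

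The stretch higher in Mushito held Zm00001eb404780, Zm00001eb404790 and Zm00001eb404800, the middle one being the gene with no read in Palomero. Mushito means were 672 ± 355, 297 ± 85.04 and 559 ± 243 normalized counts, and Palomero means 55.1 ± 61.2, 0 ± 0 and 4.35 ± 5.37 (SD, n = 4). The log2 differences were -4.69, -8.17 and -7.40, and the limma adjusted p was at most 0.000108 for the 3 genes. Here the other landraces were not all low: their highest libraries reached 3415, 1241 and 1513.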

How the data were processed

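Poly(A) RNA of leaf primordia was sequenced from directional libraries, per the labels. The deposited table is a signal of normalized counts for 39756 genes and 32 libraries. STAR, featureCounts and DESeq2 are named in the submitters' processing notes, and their versions, the genome build and the annotation are not given in the sources used here. In each library 100% of the deposited values were whole multiples of 1 step at a tolerance of 0.01 of a step, and dividing by the step gave whole reads, 54.8 M to 121 M per library. In 2 libraries, replicate 1 of Reventador and replicate 2 of Gordo in the ninth leaf, the step was so near 1 that whole reads could not be told from it by the automatic test; they were used like the others. Most low values were even, so reads are not independent molecules, and the floor of 3 reads covers counting error only.

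The test was limma 3.58.1 (R 4.3.3) on log2(normalized count + 1), with 16 group means over all 32 libraries, a shared residual spread and an intensity trend. The landrace difference over both leaves is the mean of its values in the fifth and ninth leaf. P-values were adjusted by Benjamini-Hochberg across the 26010 genes averaging 10 or more in the 8 libraries, with a threshold of 0.05. edgeR 4.0.16 and DESeq2 1.42.0 on the recovered reads were alternatives, and the scripts were tested on simulated data. The labels do not say that replicates came from separate plants, so p-values measure only the spread between replicates, which may be technical. That spread is pooled over the 16 groups of all 32 libraries. The wider spread in the fifth leaf of Mushito was thus averaged with that of the other groups. No 2 libraries held identical values. Replicates with the same number did not deviate together, and no pairing was used. Between the 2 leaves of Mushito they deviated in opposite directions (r = -0.195), and a pairing within Mushito was not tested.

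Named genes were, past the threshold and with a mean of at least 100, the 2 largest differences each way over both leaves among separated genes with no library at the floor; the 2 most abundant each way with at least a 2-fold difference; the 2 highest floor genes each way; the largest of each leaf; the interaction genes; and the longest stretches of IDs. The members, this rule and the lists were chosen with earlier results of these data known. Planned gene lists and markers were left out for want of names.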

Additional observations from a re-analysis of the deposited data

Results flagged for a closer look

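In 3 of the 35 groups of 4 libraries examined, 1 library lay far from the other 3 relative to the group's whole range, where chance gives about 1 in 20. Zm00001eb279860 had 1066 normalized counts in the fifth leaf replicate 1 of Palomero and 134, 0 and 0 in the rest. Zm00001eb337180 had 10804 in the same library, against 6919 to 7341 in the other 3 of Palomero. Zm00001eb319670 had 739 in the fifth leaf replicate 1 of Mushito, against 60.3 to 90.7 in the other 3 of Mushito. The groups mix the leaves, so a leaf difference can set a library apart.

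In 4 genes the change from the fifth to the ninth leaf differed between Palomero and Mushito in the limma test of that difference. The log2 value was 5.67 for Zm00001eb192380, -7.16 for Zm00001eb220210, -8.57 for Zm00001eb279860 and 8.13 for Zm00001eb354330.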

How the results depend on the processing

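Over both leaves 493 genes passed, 292 with only the 8 libraries in the fit, 951 in DESeq2, and 273 to 755 when 1 library was left out (fewest without the fifth leaf replicate 2 of Palomero, most without that of Mushito). The other settings tried, edgeR among them with 367, stayed within 1.5 times. In the fifth leaf the count of 138 became 275 with a pseudocount of 10, 255 with no filter, 276 after quantile normalization, 51 with only the 8 libraries, 65 with the 16 libraries of that leaf, 78 in edgeR, 454 in DESeq2 and 36 to 571 without 1 library. For the ninth leaf 124 became 191 with a pseudocount of 10, 71 with a mean of at least 50, 188 after quantile normalization, 50 with only the 8 libraries, 35 in edgeR, 284 in DESeq2 and 46 to 156 without 1 library. The 4 genes whose leaf change differed became 13, 9, 1, 2, 7 and 2 with a pseudocount of 10, no filter, a mean of at least 50, a mean of at least 10 over all 32 libraries, quantile normalization and robust eBayes. They became 0 with only the 8 libraries in limma (1935 at an unadjusted p under 0.05), 1 in edgeR, 46 in DESeq2 and 2 to 19 without 1 library. With only the 8 libraries the genes changed as well as their number. Of the 292 over both leaves, 194 were among the 493. Of the 51 in the fifth leaf, 29 were among the 138, and of the 50 in the ninth, 28 were among the 124. The cause of these shifts was not tested.

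Palomero was the higher in 49.2% of the ninth leaf calls, but in 36.3% with a pseudocount of 0.1, 59.2% with one of 10, 60% with only the 8 libraries, 34.3% in edgeR and 28.3% to 58.7% without 1 library (lowest without the ninth leaf replicate 2 of Palomero). In the fifth leaf it was 56.5%, and 45.1% with only the 8 libraries, 41.4% in DESeq2 and 37.0% to 66.7% without 1 library (lowest and highest without replicate 1 and 2 of Palomero). The genes at the floor became 6 and 2 (read in Palomero and in Mushito) with at least 50 in each expressing library, and 9 and 3 with a floor of 0 reads. Without 1 library they became 20 to 29 and 10 to 18, where fewer libraries had to meet the rule. The pair kept rank 28 of 28 without each library. The share of genes of the fifth leaf with the same sign in the ninth was 79.2% with no filter and 70.2% to 91.8% without 1 library. The converse was 94.0% with only the 8 libraries, 97.1% in edgeR and 82.6% to 90.6% without 1 library; these shares under other settings were added after seeing the data.

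Replicate numbers shared by the groups did not pair the libraries: deviations of same-numbered libraries correlated at -0.195 to 0.054 over the 6 pairs of groups. The lowest value was that of the fifth and ninth leaf of Mushito, where libraries of unlike number deviated together. A pairing within Mushito alone was not tested. With a replicate block the counts were 483, 141, 122 and 6, and with crossed numbers, added after seeing the data, 487, 131, 119 and 5. Over 361 alternatives for the 17 values of named genes none changed sign and 37 no longer passed. The log2 value stayed the same by design after a change of filter, robust eBayes, a replicate block or only the 8 libraries. Its sign was therefore fixed in those settings. All named values were also past the threshold when chosen. With 2 libraries a group, no gene with a mean under 100 passed with a difference under 2-fold.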
